A study of Nicotiana benthamiana with 12 samples.

Results

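Leaves of CbFAD3 line L2 that had been kept in 200 mM NaCl for 6 h were compared with leaves of the same line under normal conditions. Line L2 is a tobacco line that expresses CbFAD3, the microsomal omega-3 desaturase gene of the cold-adapted crucifer Chorispora bungeana, from the constitutive CaMV 35S promoter. The comparison uses 6 of the 12 arrays of the series, 3 of L2 salt and 3 of L2 normal, and the other 6 are the same conditions in wild-type (WT) tobacco without the transgene. All seedlings were 2 weeks old and were raised at 25 °C in days of 16 h light and 8 h dark, and each array carried leaf RNA pooled from several plants (3 in the sample labels, 5 in the series design). L2 is 1 transgenic line, so that effects of the transgene and of its insertion in that line cannot be told apart. The plants are labelled Nicotiana benthamiana, whereas the array was designed for N. tabacum. Of 43759 probes, 23117 were tested, which are those with a signal well above background on all 3 arrays of L2 salt or all 3 of L2 normal. A level is given throughout as log2 of the signal relative to the 75th percentile of the array, so that 0 is the level of a fairly bright probe, and a difference of 1 is 2-fold.

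Omega-3 desaturases add a further double bond to linoleic acid in membrane lipids, which yields linolenic acid. High external NaCl withdraws water from leaf cells and loads them with sodium and chloride, and leaves usually answer within hours through calcium, kinase and hormone signals and with large changes in transcripts for osmolyte synthesis, ion transport, antioxidant defence and growth. Sulfate and nitrate assimilation supply cysteine, glutathione and amino acids to that response. The arrays name most probes by an accession with no description, so that gene names are given here only for probes the study annotated. No probe here was known to match CbFAD3, and the transgene could not be checked on the arrays. Leaf identity was not tested. The 5 annotated plastid probes were well above background on all 6 L2 arrays, but their detection alone does not tell leaf from other organs.

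The arrays lie on 3 slides of 4 arrays each. L2 salt 1, 2 and 3 are on one slide together with WT salt 3, L2 normal 2 and 3 are on another with WT salt 1 and 2, and L2 normal 1 is on the remaining slide with WT normal 1, 2 and 3. No slide holds L2 salt beside L2 normal, so that salt and slide cannot be told apart within L2. Between 49.2% and 55.4% of all probes were well above background on the L2 salt arrays, against 53.5% to 62.7% on the L2 normal arrays, and the number of arrays limits the precision. Each sample is a pool of seedling leaves, and nothing in the labels says that the pools of a group were grown or treated separately. The p-values therefore measure the spread between these samples.

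L2 normal 1 stood apart from L2 normal 2 and 3. It differed by more than 2-fold from the mean of the other two L2 normal arrays at 3333 of 23117 probes (14.4%), whereas the same count was 951 probes (4.11%) for L2 normal 2 and 2680 probes (11.6%) for L2 normal 3. The 3 L2 salt arrays gave 1368, 860 and 1433 probes (3.72% to 6.20%), and the WT normal arrays 191, 192 and 87 probes. L2 normal 1 lay closest to the WT normal arrays on its own slide, with correlations across probes of 0.987, 0.985 and 0.989, against 0.95 with L2 normal 2 and 0.919 with L2 normal 3. L2 normal 2 and 3 also differed from each other, with a correlation of 0.961 and 1685 probes (7.29%) more than 2-fold apart. Pairs of L2 salt arrays correlated at 0.951 to 0.972. L2 normal 2 correlated at 0.978 and 0.976 with WT salt 1 and 2 on its own slide, at 0.971 with WT salt 3 and at 0.959 to 0.963 with the 3 L2 salt arrays. For L2 normal 3 the correlations were 0.957 to 0.961 with the WT salt arrays and 0.933 to 0.960 with the L2 salt arrays. These correlations run over 23117 probes, which share the array and its scaling, and are given as a description.

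The L2 normal arrays were placed on the probes counted in WT, where WT salt and WT normal likewise never share a slide, so that salt and slide cannot be told apart in WT either. In WT salt against WT normal, limma counted 1388 of the same 23117 probes as higher (6%) and 847 as lower (3.66%), at more than 2-fold and a Benjamini-Hochberg adjusted p below 0.05. With the slide as a fixed or random block it counted 0 and 0. Under the fixed block, the WT difference rests on L2 normal 1 beside WT normal and on L2 normal 2 and 3 beside WT salt 1 and 2. These L2 normal arrays differ from each other, so the counts of 0 cannot tell salt from slide. On the 1388 probes counted higher in WT salt, the median level relative to the WT normal mean was 1.34, 1.43 and 1.59 on L2 salt 1, 2 and 3, and 0.10, 1.29 and 1.36 on L2 normal 1, 2 and 3. On the 847 probes counted lower, it was -0.84, -0.97 and -1.31 on the L2 salt arrays, and -0.03, -0.92 and -1.31 on L2 normal 1, 2 and 3. L2 normal 1 was thus near WT normal, while L2 normal 2 and 3 were near the salt arrays of both lines. The labels were kept as given. The slide, the plants of each pool and an exchange of labels cannot be told apart here, which bears on every value of L2 salt against L2 normal below. L2 normal 1 was nearer to the WT normal mean than to the WT salt mean at 96.0% of the probes counted higher in WT, against 8.07% for L2 normal 2 and 9.73% for L2 normal 3. For the probes counted lower in WT the shares were 93.7%, 22.7% and 9.21%, and over all 23117 probes they were 78.6%, 28.8% and 27.2%. L2 normal 2 and 3 were both above L2 normal 1 at 1333 of the 1388 probes, and both below it at 775 of the 847, beside 29% above and 51.9% below over all probes.

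**Figure D1:**
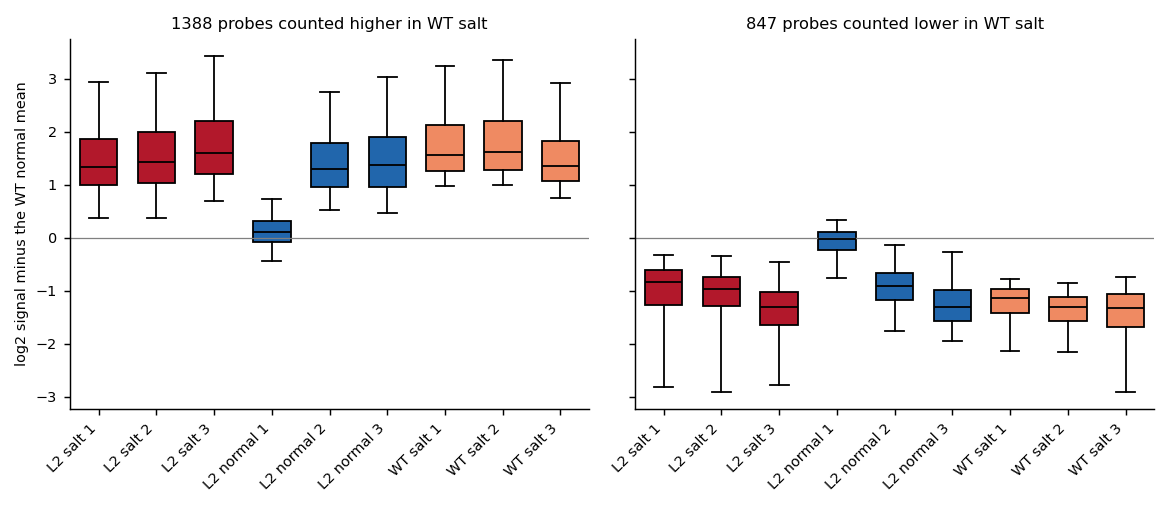
Log2 signal minus the WT normal mean on 9 arrays, for the 1388 probes counted higher and the 847 counted lower in WT salt against WT normal. Boxes give the quartiles with the median as a line, whiskers the 5th and 95th percentiles over probes. The WT salt and WT normal arrays together chose the probes, and WT salt is shown for scale. L2 normal 1 shares its slide with the WT normal arrays. L2 normal 1 lies at the WT normal level (medians 0.10 and -0.03), while L2 normal 2 and 3 lie at the level of the salt arrays.

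The size of the salt difference in L2 therefore depended on which L2 normal array was used. On the 1388 probes, the median difference was 1.37 for L2 salt minus L2 normal 1 and 0.17 for L2 salt minus L2 normal 2 and 3, beside 1.48 for WT salt minus WT normal. On the 847 probes it was -1.0 and 0.02 in L2, beside -1.27 in WT. Values are therefore given by array for the probes described, and for many also against L2 normal 1 and against L2 normal 2 and 3.

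With all 3 L2 normal arrays, limma counted 20 probes as higher (0.0865%) and 64 as lower (0.277%) in L2 salt than in L2 normal. The measured differences were 1.01 to 1.74 on the log2 scale for the 20 and -5.37 to -1.02 for the 64, of which 26 were below the measurable range in L2 salt. Before adjustment, 4159 probes (18%) had a p below 0.05 and 953 of them (4.12%) also differed by more than 2-fold. The groups did not overlap at 2170 probes in the higher direction (9.39%) and at 1600 in the lower direction (6.92%), and over all 23117 probes the median difference was 0.01. In leaf tissue, a smaller share of one cell type and less of a transcript per cell cannot be told apart. The split between higher and lower followed the scaling: it was 82 higher and 66 lower when each array was set to its median, 35 and 62 after quantile normalization, and 13 and 81 when the 75th percentile was taken over probes detected everywhere. Median scaling also moved the median difference of all probes to 0.15. With the replicate number as a block, 34 probes were higher and 74 lower, of which 18 and 52 were among those above.

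Single arrays moved these counts, WT arrays included, because the fit shares its spread over the 4 groups. Without L2 normal 1, 16 probes were higher and 59 lower, without L2 normal 2 the counts were 134 and 88, and without L2 normal 3 they were 39 and 101. Without L2 salt 1 or L2 salt 2 they were 2 and 23 or 1 and 15, and without L2 salt 3 they were 13 and 57. Without WT salt 1, 2 or 3 they were 2 and 25, 4 and 21, or 35 and 118. Leaving out WT normal 1, 2 or 3 left 1 probe higher each time and 16, 24 or 16 lower. Against L2 normal 1 alone, L2 salt had 1337 probes higher and 940 lower, which included 17 of the 20 and 58 of the 64. With the slide as a fixed block, the L2 difference rests on WT salt 3 beside L2 salt and on WT salt 1 and 2 beside L2 normal 2 and 3; it then counted 72 higher and 19 lower, among them 3 of the 20 and 7 of the 64. With the slide as a random block, 0 were higher and 1 was lower.

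Of the 20 probes counted higher, 19 were well above background on all 6 L2 arrays, and the 12 strongest rose by 1.15 to 1.70. These were ranked among probes whose L2 groups did not overlap and whose neighbouring spots had an even background on all 6 L2 arrays. The strongest of them, A_95_P270571 (EB433159), had a level of 0.44, 1.01 and 0.77 on L2 salt 1, 2 and 3, and of -1.42, -0.88 and -0.57 on L2 normal 1, 2 and 3. Every L2 salt array was above every L2 normal array, by 1.70 ± 0.31 on the log2 scale (SE of the limma fit, adjusted p = 0.0459). WT showed -0.39, 0.50 and -0.16 under salt and 0.19, -0.48 and -0.72 under normal conditions, which overlap.

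A_95_P265986, a probe the array names by its own number, had the lowest adjusted p among the increases (0.00534). It reached 0.25, 0.67 and 0.61 in L2 salt, against -0.95, -1.02 and -1.17 in L2 normal, a difference of 1.56 ± 0.15. Here the 3 L2 normal arrays lay together, and the difference was 1.46 against L2 normal 1 and 1.60 against L2 normal 2 and 3. WT salt was also above WT normal, by 0.49 (adjusted p = 0.0448). A_95_P209942 (TA19295_4097) gave 0.99, 1.65 and 1.54 in L2 salt, against -0.05, -0.03 and -0.46 in L2 normal, with a WT difference of 0.27. A_95_P232014 (FG163279) gave 1.1, 1.43 and 1.40 in L2 salt and -0.19, 0.11 and -0.29 in L2 normal, with a WT difference of 0.44. In both, L2 normal lay below WT normal (0.56 to 0.77 and 0.23 to 0.58), and in both L2 salt overlapped WT salt.

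A_95_P134497 (FG135141) was the brightest of the named increases, at 2.19, 2.12 and 2.18 in L2 salt against 0.92, 1.13 and 0.63 in L2 normal. The L2 difference was 1.27 ± 0.21 (limma adjusted p = 0.0369) and almost equal against L2 normal 1 (1.24) and against L2 normal 2 and 3 (1.28). For A_95_P122782 (DW002747) the array mattered more. Its level was -1.42, -1.03 and -1.49 in L2 salt and -3.43, -2.11 and -2.94 in L2 normal, so that the difference of 1.51 became 2.11 against L2 normal 1 and 1.21 against the other two. WT salt was above WT normal by 1.11 for this probe (limma adjusted p = 0.0237), and it and A_95_P151507 (EB681722) were the 2 of the 20 that were also counted higher in WT. A_95_P151507, outside the 12 and picked out after its values were seen, was at -1.06, -1.28 and -1.05 in L2 salt against -2.61, -1.96 and -2.18 in L2 normal, a difference of 1.12, with 1.24 in WT.

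Probes of 3 accessions were counted in pairs, each pair in the same direction. EB429767 was higher in L2 salt on both of its probes, A_95_P219072 (-1.40, -0.70 and -1.16 in L2 salt, against -2.65, -2.17 and -2.18 in L2 normal) and A_95_P137077 (-0.07, -0.03 and -0.35 in L2 salt, against -1.58, -0.95 and -1.32 in L2 normal). The differences were 1.24 and 1.14, beside 0.58 and 0.48 in WT. FS409302 was lower on A_95_P025151 (1.62, 1.46 and 2.12 in L2 salt, against 2.94, 3.64 and 2.74 in L2 normal) and on A_95_P252949 (1.12, 0.99 and 1.55 in L2 salt, against 2.46, 3.17 and 2.46 in L2 normal), by -1.37 and -1.47. A_95_P137077 and the FS409302 probes were picked out after their values were seen, for sharing an accession.

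**Figure D2:**
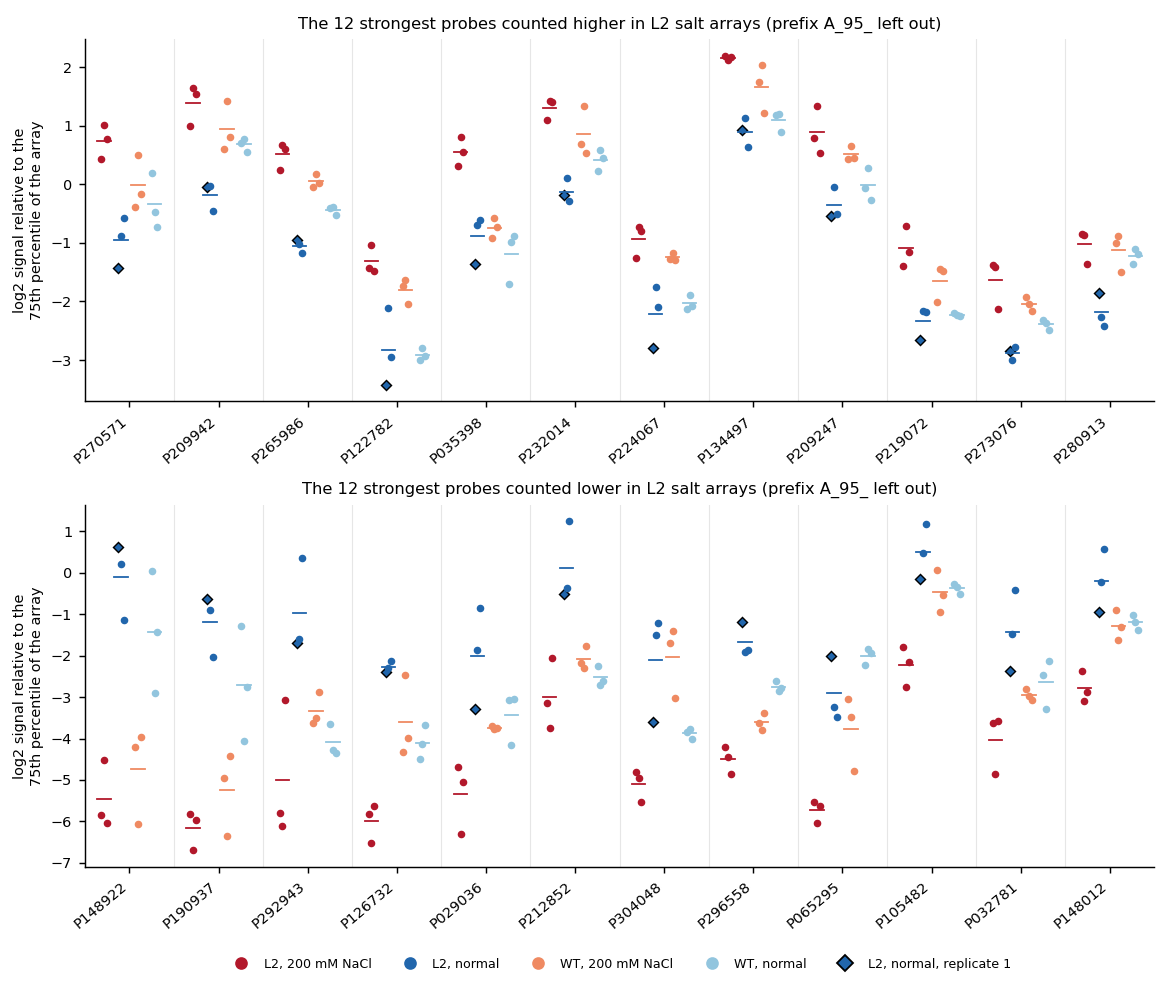
Log2 signal relative to the 75th percentile of the array, for the 12 strongest probes counted higher (top) and the 12 counted lower (bottom) in L2 salt than in L2 normal. Each point is 1 array, lines are group means, and the diamond is L2 normal 1. All 3 L2 salt arrays lie beyond all 3 L2 normal arrays in each of the 24 probes, which was a condition for being shown.

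The decreases were larger than the increases, and many ended below the range the arrays measure. Of the 64 probes counted lower, 27 were well above background on all 6 L2 arrays and 26 on 0 of the 3 L2 salt arrays. The remaining 11 were well above background on only some of the L2 salt arrays, so their differences rest partly on values below the measurable range. For a probe well above background on 0 of the 3 L2 salt arrays, the fold is a bound. It was taken from the L2 normal mean over the lowest signal well above background on each L2 salt array, or over the probe's own signal where that was higher. Such probes passed the filter through L2 normal, and their adjusted p rests on L2 salt values below the measurable range. Of these 26, 11 were at least 2-fold lower by the bound, 14 had a bound below 2-fold and 1 had none, with bounds up to 14.4-fold. The 27 probes measured on all 6 arrays differed by -3.11 to -1.02, with a median of -1.56.

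Among the 64 probes counted lower, A_95_P148922 (EB678509) fell most. Its level was -5.85, -4.51 and -6.04 in L2 salt, not well above background on any array, against 0.63, 0.20 and -1.13 in L2 normal, which makes it at least 14.4-fold lower (limma adjusted p = 0.0237, measured difference -5.37). WT also fell, to -4.19, -6.06 and -3.97 in WT salt, against 0.05, -2.89 and -1.44 in WT normal (difference -3.31, adjusted p = 0.0179). A_95_P190937 (EB677483) gave nearly the same picture: -5.83, -6.70 and -5.97 in L2 salt, against -0.64, -0.90 and -2.04 in L2 normal, at least 6.78-fold lower. Its WT difference was -2.53 (adjusted p = 0.0260), and WT normal 2 was lower than the other WT normal arrays for both probes.

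Other probes fell in L2 while WT did not pass the test. A_95_P126732 (EB426079) was at -5.82, -6.51 and -5.63 in L2 salt, against -2.39, -2.29 and -2.13 in L2 normal, at least 3.22-fold lower (limma adjusted p = 0.0101). The 3 L2 normal arrays lay close together for this probe. In WT its level was -4.33, -2.46 and -3.98 under salt and -4.50, -4.14 and -3.68 under normal conditions, which overlap. A_95_P105482 (CV017480) was well above background everywhere, at -1.80, -2.75 and -2.17 in L2 salt against -0.15, 0.48 and 1.19 in L2 normal, a difference of -2.74 ± 0.35 (adjusted p = 0.0169), and WT differed by -0.10. A_95_P148012 (EB643516) likewise gave -2.37, -3.09 and -2.88 in L2 salt, against -0.94, -0.22 and 0.57 in L2 normal, a difference of -2.58 ± 0.34, with -0.09 in WT. A_95_P212852 (EB449778) gave -3.15, -3.75 and -2.05 in L2 salt, against -0.50, -0.37 and 1.24 in L2 normal (-3.11 ± 0.47), with 0.45 in WT. In these 3 probes L2 normal 1 was the lowest of the L2 normal arrays, and the difference against it alone was still -2.08, -1.84 and -2.48.

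AF123503 was represented by 2 of the 12 named decreases. A_95_P029036 was at -4.70, -6.31 and -5.04 in L2 salt, against -3.29, -1.87 and -0.85 in L2 normal, at least 3.86-fold lower. A_95_P032781 was at -3.63, -4.86 and -3.59, against -2.38, -1.48 and -0.43, a difference of -2.60 ± 0.48 (limma adjusted p = 0.0460). It was well above background on only 1 of the 3 L2 salt arrays. On both probes L2 normal 1 was the lowest L2 normal array, the difference against it was -2.06 and -1.65, and WT differed by -0.31 and -0.32. The probe with the lowest adjusted p of all, A_95_P296558 (FG143289, 0.00127), was at -4.21, -4.45 and -4.86 in L2 salt against -1.19, -1.92 and -1.87 in L2 normal, a difference of -2.84 ± 0.23. Only 1 of its 3 L2 salt values was well above background, so the size of this difference is uncertain. Here L2 normal 1 was the highest, and WT differed by -0.85 in the same direction (adjusted p = 0.0287).

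Compared with WT, the differences in L2 were mostly larger, as follows from choosing the probes on L2. Of the 20 probes counted higher in L2, 19 were higher in WT salt than in WT normal without regard to a test and 2 were counted higher in WT (10%, beside 6% of all probes tested). Of the 64 counted lower, 51 were lower in WT and 18 were counted lower (28.1%, beside 3.66% of all), and 1 was counted higher in WT. For scale, 14508 of all 23117 probes had the same direction in L2 and WT without regard to a test. The median difference of the 20 was 1.25 in L2 and 0.40 in WT, and that of the 64 was -1.79 in L2 and -0.57 in WT. The 20 had a median of 1.44 against L2 normal 1 and 1.20 against L2 normal 2 and 3, and the 64 had -1.69 and -1.78. The L2 groups did not overlap at any of the 20 or the 64. This follows largely from counting the probes on all 3 L2 normal arrays and is not separate support.

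**Figure D3:**
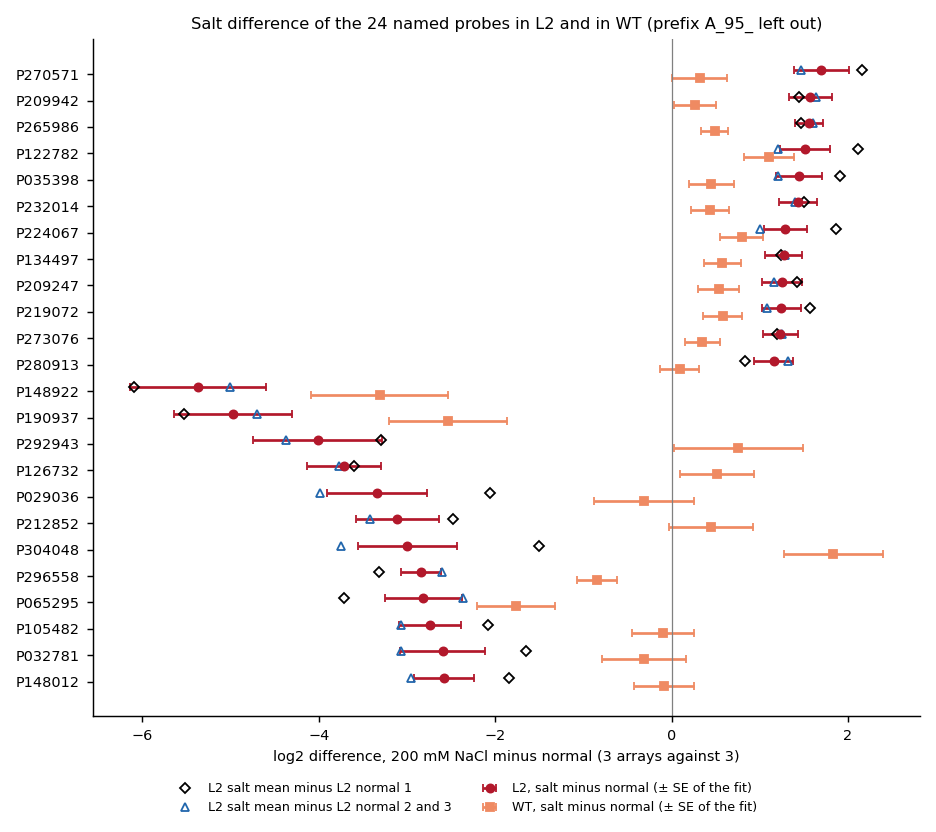
Log2 difference between 200 mM NaCl and normal conditions for the 24 named probes in L2 (circles) and in WT (squares), with the SE of the limma fit over 12 arrays, and in L2 against L2 normal 1 (diamonds) or L2 normal 2 and 3 (triangles). The increases are 1.15 to 1.70 in L2 and 0.09 to 1.11 in WT; the decreases are -5.37 to -2.58 in L2 and -3.31 to 1.83 in WT.

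The difference between the salt responses of L2 and WT was tested directly. Limma counted 0 probes with a larger and 0 with a smaller response in L2 (0%), with a lowest adjusted p of 0.118, against 4047 probes (17.5%) with an unadjusted p below 0.05. The count of 0 turned on L2 normal 1. Without that array, limma counted 1740 probes with a larger and 1517 with a smaller response in L2, whereas it stayed at 0 without any other single array. When L2 normal 1 alone stood for L2 normal it was also 0. Array weights, which gave L2 normal 1 the lowest weight of all arrays (0.155) but whose estimation stopped before it converged, gave 1284 and 1466 probes.

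The probes with the widest gap between the responses were noisy. The lead on the smaller side, A_95_P101933 (CN949696), was at -5.37, -6.79 and -6.09 in L2 salt and -1.82, 0.48 and 0.50 in L2 normal, at least 12.7-fold lower, but limma did not pass it (adjusted p = 0.0875). WT salt was at -5.55, -4.20 and -1.31 and WT normal at -1.92, -7.42 and -2.36, so that replicates of one WT group spanned a range nearly as wide as the L2 difference. Over the 12 arrays, 7 probes including this one followed its levels with a correlation above 0.95; among them are both probes of TA11937_4097 (A_95_P177292 and A_95_P101997), A_95_P108897 (CV019053) and A_95_P102082 (FG626373). All 7 were low on L2 salt 1 to 3, WT normal 2 and WT salt 1 and 2, with adjusted p-values from 0.0599 to 0.115 in L2. On the larger side, A_95_P105122 (FG147325) was at -3.05, -2.92 and -3.59 in L2 salt, against -4.07, -4.89 and -6.70 in L2 normal (2.03 ± 0.54, adjusted p = 0.105), and was lower in WT salt than in WT normal (difference -1.0, adjusted p = 0.177). Of its L2 normal values, only 1 was well above background. In the other 4 probes on that side, an APS reductase-like and the pectin methylesterase probe among them, L2 differed by 0.15 to 0.59 and WT by -2.66 to -2.30. The APS reductase-like probe A_95_P170234 (EH664856) was at -1.81, -1.18 and -3.06 in L2 salt and -2.36, -2.03 and -3.44 in L2 normal, and at -3.18, -3.50 and -2.54 in WT salt and -0.97, -0.47 and -0.60 in WT normal (difference between the responses 2.99, adjusted p = 0.157).

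Without regard to the test, 400 probes were more than 2-fold higher (1.73%) and 769 more than 2-fold lower (3.33%) in L2 salt. Several of the largest increases rested on L2 normal 1. A_95_P113672 (CV021247) was at 2.28, 3.16 and 3.37 in L2 salt, against -2.02, 2.16 and 2.22 in L2 normal, and at 2.64, 3.00 and 2.38 in WT salt, against -2.06, -1.91 and -2.07 in WT normal. L2 normal 1 was at the level of WT normal, and L2 normal 2 and 3 were close to the level of the salt arrays. The L2 difference of 2.15 (limma adjusted p = 0.225) was 4.95 against L2 normal 1 and 0.74 against L2 normal 2 and 3, beside 4.69 in WT (adjusted p = 0.00910). A_95_P011616 (DV159148) was at -1.46, -1.43 and -1.14 in L2 salt, against -7.15, -1.88 and -1.86 in L2 normal, and was not well above background on L2 normal 1 or any WT normal array. It was at least 11.48-fold higher in L2 salt than on L2 normal 1, differed by 0.52 from L2 normal 2 and 3, and was at least 13.1-fold higher in WT salt than in WT normal. A_95_P071770 (BP525787), also not well above background on L2 normal 1, was at least 9.41-fold higher in L2 salt than there and differed by 0.77 from L2 normal 2 and 3. A_95_P023291 (FG645383) differed by 4.21 against L2 normal 1 and by 1.14 against L2 normal 2 and 3. The largest increase, A_95_P226494 (EB680189), was 2.41 (limma adjusted p = 0.122), with only 1 L2 normal value well above background. A_95_P113877 (CV021354) and A_95_P105122 went the other way. They differed by 0.41 and 0.89 against L2 normal 1, and by 2.88 and 2.61 against L2 normal 2 and 3, where neither was well above background. The increase of A_95_P267626 (DV160916) held against each array, at -0.92, -0.12 and -0.35 in L2 salt and -3.11, -2.82 and -1.42 in L2 normal, and was close to the 0.05 limit (1.99 ± 0.39, adjusted p = 0.0541), with 2.25 in WT.

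**Figure D4:**
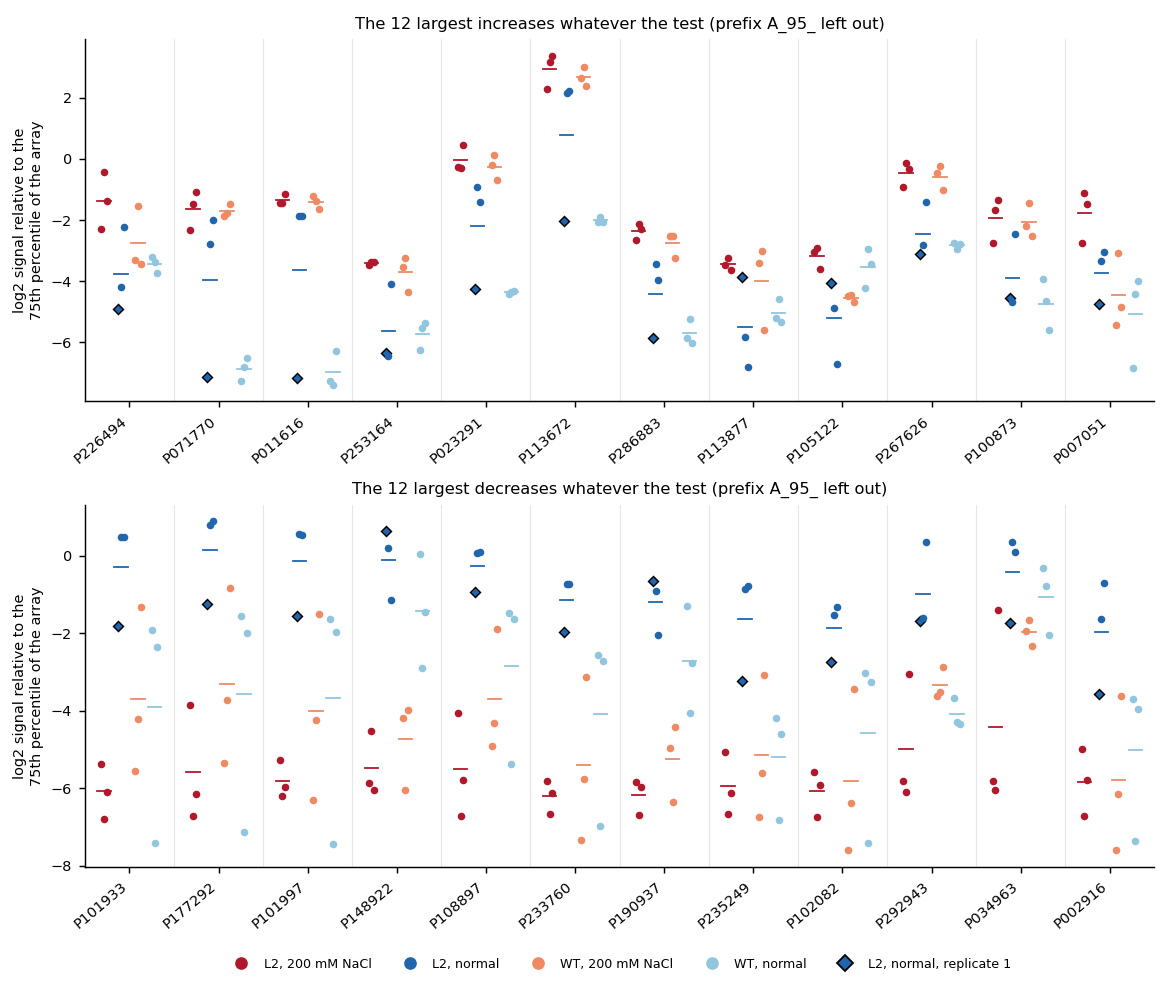
Log2 signal relative to the 75th percentile of the array, for the 12 largest increases (top) and decreases (bottom) in L2 salt against L2 normal, whatever the test. Each point is 1 array, lines are group means, and the diamond is L2 normal 1. In P071770, P011616, P023291 and P113672 the diamond lies with WT normal, far below the other L2 normal arrays.

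Gene names were at hand for 61 probes that the study annotated by function after choosing them on the L2 and WT salt arrays. L2 salt enters that choice, so their direction in L2 salt against L2 normal is not independent evidence. The function groups below were formed here from the study's annotations, with these values known. Of the 61, 36 were tested, 2 were counted higher and 0 lower (beside 0.0865% and 0.277% of all probes), and 31 had a positive difference, beside 11833 of all 23117 probes. Their median difference was 0.27, beside 0.01 over all probes, and it was -0.41 against L2 normal 1 and 0.80 against L2 normal 2 and 3. WT salt was lower than WT normal by a median of -1.57 on the same 36 probes, and 23 of them were counted lower in WT, beside 3.66% of all probes; the WT arrays entered the study's choice. Against L2 normal 1 alone, 19 of the 36 changed sign, and against L2 normal 2 and 3 alone 4 did.

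Sulfur and nitrogen assimilation was the largest of the annotated groups, with 12 of 13 probes tested, 0 counted and a median difference of 0.64. Of 6 tested probes annotated as APS reductase-like, which would reduce activated sulfate to sulfite on the way to cysteine, A_95_P259371 (FG171287) differed most. It was at 0.97, 1.30 and -0.47 in L2 salt and -0.70, 0.09 and -1.14 in L2 normal, which overlap (1.18 ± 0.42, limma adjusted p = 0.175), while WT differed by -1.36. A_95_P134087 (EB435916) was at 1.60, 1.87 and 0.86 in L2 salt, against 0.84, 0.62 and -0.37 in L2 normal, without overlap (1.08 ± 0.32, adjusted p = 0.132), and WT differed by -0.96. Glycine dehydrogenase, a photorespiratory enzyme of the glycine cleavage complex (A_95_P121002), was at -0.55, -0.52 and -1.45 in L2 salt and -1.92, -1.05 and -2.57 in L2 normal (1.00, adjusted p = 0.167). Its difference was alike against L2 normal 1 (1.08) and against L2 normal 2 and 3 (0.97). Nitrate reductase, which makes nitrite from nitrate (A_95_P258921), was at -0.72, -0.93 and -1.32 in L2 salt and -0.92, -1.39 and -1.68 in L2 normal (0.34, adjusted p = 0.569), and fell in WT by 1.91 on the log2 scale (adjusted p = 0.00833).

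All 5 plastid probes were tested, with a median difference of 0.73, and 1 was counted higher. This was A_95_P035398 (BP128462), annotated as maturase K, the plastid-encoded protein that helps splice chloroplast introns. It was at 0.31, 0.80 and 0.55 in L2 salt, against -1.36, -0.70 and -0.60 in L2 normal (1.44 ± 0.26, limma adjusted p = 0.0459), and WT differed by 0.45. The array has another probe of the same accession, A_95_P260261, which was much brighter and did not separate the groups: 5.50, 5.26 and 4.65 in L2 salt, 5.56, 4.95 and 4.53 in L2 normal (0.12, adjusted p = 0.844). The probes of BP128462 thus disagreed. The chloroplast NAD(P)H dehydrogenase probe A_95_P023626, for a complex of cyclic electron flow, was at -0.92, -0.59 and -0.44 in L2 salt against -1.23, -1.54 and -1.57 in L2 normal (0.80 ± 0.22, adjusted p = 0.112), without overlap. Ycf3, an assembly factor of photosystem I (A_95_P047176), was at 0.59, 1.16 and 0.67 in L2 salt and 0.81, -0.06 and -0.51 in L2 normal, so that its difference was -0.01 against L2 normal 1 and 1.09 against L2 normal 2 and 3.

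Cell wall and membrane probes (6 of 12 tested, 0 counted, median 0.24) and protein kinases (4 of 6 tested, 1 counted, median 0.13) depended strongly on the L2 normal array, with medians of -1.27 and -1.11 against L2 normal 1 and of 0.86 and 0.80 against L2 normal 2 and 3. Pectin methylesterase, which removes methyl groups from cell wall pectin (A_95_P316268), was at -2.73, -2.61 and -3.46 in L2 salt and -1.47, -5.12 and -3.74 in L2 normal. L2 normal 1 was above and L2 normal 2 and 3 were below all L2 salt arrays. The same order held for the receptor-like kinase A_95_P078860 (-1.30, -1.53 and -1.83 in L2 salt, against -0.56, -2.44 and -2.44 in L2 normal) and for a calcium-binding protein, A_95_P192712 (-3.37, -3.29 and -3.74, against -2.43, -5.90 and -4.34). Of the 2 tested PPR-containing probes, a family that binds organellar RNA, A_95_P130417 was at -2.82, -2.71 and -3.32 in L2 salt and -3.25, -5.32 and -3.91 in L2 normal, a difference of 1.21 ± 0.44 (adjusted p = 0.186) that was 0.30 against L2 normal 1 and 1.67 against L2 normal 2 and 3. A_95_P058111 was at -2.62, -2.64 and -2.98 in L2 salt and -1.56, -3.39 and -3.51 in L2 normal (0.07), with -1.19 against L2 normal 1 and 0.70 against L2 normal 2 and 3.

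**Figure D5:**
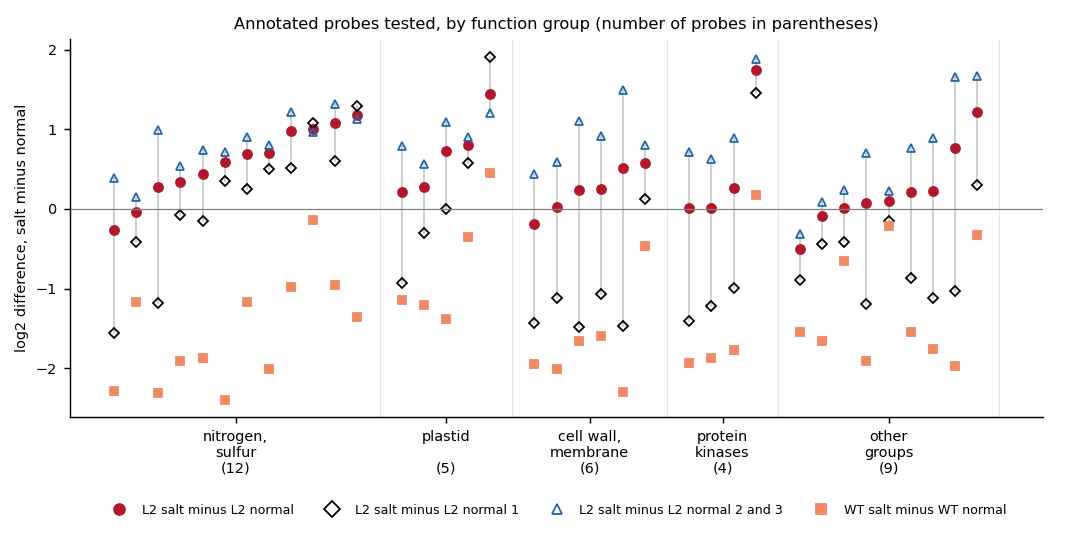
Log2 difference between salt and normal conditions for the 36 annotated probes that were tested, by function group. Circles are L2 salt minus L2 normal, diamonds L2 salt minus L2 normal 1, triangles L2 salt minus L2 normal 2 and 3, and squares WT salt minus WT normal. The circles have a median of 0.27, the diamonds of -0.41, the triangles of 0.80 and the squares of -1.57.

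Other probes with an accession of the annotated set were not part of the study's choice. There are 10 on the array, of which 7 were tested, and 0 passed the test in L2. The other nitrate reductase probe of X06134, A_95_P247817, was at 2.16, 2.38 and 1.54 in L2 salt and 1.44, 1.23 and 1.52 in L2 normal (0.63, limma adjusted p = 0.245), and like its partner it was lower in WT salt (difference -1.77, adjusted p = 0.00833). The other secretory peroxidase probe of AF149251, A_95_P112997, was at -0.75, -0.66 and -1.05 in L2 salt and -0.92, 0.52 and 0.13 in L2 normal (-0.73, adjusted p = 0.226). The other 5 tested probes, the brighter BP128462 probe among them, had differences from -0.42 to 0.16 in L2.

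The other annotated probe that was counted, A_95_P134852 (EB437708), is described as an SNF1-related protein kinase, a family that senses energy and stress. It was at -2.54, -2.95 and -3.58 in L2 salt, against -4.48, -5.34 and -4.48 in L2 normal (1.74 ± 0.32, limma adjusted p = 0.0479). It is one of 14 annotated probes that lie together on the array, within rows 284 to 301 and columns 1 to 5. On L2 salt 1 and 2 all 14 gave a signal well above background, and on L2 salt 3 only 1 did, with median levels of -3.03, -3.60 and -6.14 on L2 salt 1, 2 and 3, and of -6.74, -6.27 and -7.92 on L2 normal 1, 2 and 3. Around them, the local floor, which is the 10th percentile of the raw signal of the neighbouring spots set against the same over the array, was raised by a median of 1.24 and 1.14 on L2 salt 1 and 2, and was 0.09 on L2 salt 3 and -0.03 to 0.27 on L2 normal. The part of the raised floor in these values was not tested beyond leaving out such spots, which gave 19 probes higher and 66 lower over all probes. One of the decreases, A_95_P254229 (TC126725), also failed only this check, with a local floor 1.01 from that of the array.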

How the data were processed

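Leaf RNA of 12 samples was amplified, labelled with Cy3 and hybridized to 1-colour Agilent arrays. The authors extracted spot intensity with Agilent Feature Extraction (version 10.7.3.1 in the submitters' processing notes, 11.5.1.1 in the file headers), and the deposited value table holds log2 of the processed signal minus 1 shift per array, the 75th percentile (checked: 100% of values within 0.01). The study's methods name a t-test for unpaired samples, a Benjamini-Hochberg correction and a 2-fold limit.

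The members, lists and tests here were chosen with earlier results of these data known. Control spots were excluded, and replicate spots of a probe averaged. Values of the deposited table were fitted with limma 3.58.1 (R 4.3.3; lmFit, eBayes) as 4 group means over 12 arrays (8 residual degrees of freedom), and p-values were adjusted over all 23117 probes. A probe was counted at an adjusted p below 0.05 and more than 2-fold. The script was tested on simulated data. Figures were drawn with Python 3.11.15, pandas 2.3.3, numpy 2.4.6 and matplotlib 3.10.9.

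Named were the 12 strongest counted probes in each direction whose L2 groups do not overlap, with a local floor (10th percentile of raw signal within 7 rows and 2 columns) within 2-fold of the array, the counted probes that failed only that check, the 5 with the widest difference between the L2 and WT responses on each side, and the annotated probes. Probes of one gene are given separately. Replicate numbers did not enter the main fit, which leaves the samples unpaired, and were used only in the setting with a replicate block. Same-numbered L2 salt and L2 normal arrays deviated together from their group means, with correlations of 0.365, 0.139 and 0.429. Different numbers gave -0.377 to 0.024. Deviations from a group mean cancel out within the group, so these correlations depend on each other and cannot decide whether the samples are paired. What the number marks is not stated in the labels. Of the annotated probes, 53 of 61 carry the study's accession on the array; the accession printed for a probe is the study's. Alternatives concerned scaling, background, filters, blocks, weights, tests, limits and single arrays. Lists by gene name and leaf marker genes were not tested here, because the files used hold no descriptions.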

Additional observations from a re-analysis of the deposited data

Results flagged for a closer look

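Among the named and annotated probes, 7 had all 3 L2 salt arrays on one side of all 3 L2 normal arrays, and all 3 WT salt arrays on the opposite side of all 3 WT normal arrays. Of the probes counted in L2, 0 of the 20 higher and 5 of the 64 lower had this layout. Its share over all probes tested was not counted, so whether 7 is unusual cannot be said. A_95_P206812, A_95_P129342 and A_95_P105122 were named for the widest gap between the responses, a choice that favours opposite directions. Limma's test of the difference between the responses passed none of the 7. With the L2 difference lower and the WT difference higher, A_95_P304048 (FG146580) differed between the lines by -4.83 (-3.00 in L2, 1.83 in WT, adjusted p = 0.118), A_95_P292943 by -4.77 (-4.01 in L2, 0.75 in WT, 0.149), A_95_P206812 (TA18600_4097) by -5.36 (-3.74 in L2, 1.62 in WT, 0.170) and A_95_P129342 (EB429112) by -5.33 (-3.13 in L2, 2.20 in WT, 0.128). A_95_P304048 and A_95_P206812 were not well above background on any L2 salt array, and were at least 3.60-fold and 2.88-fold lower there than in L2 normal; A_95_P292943 and A_95_P129342 were above it on 1 of the 3. With L2 higher and WT lower, A_95_P105122 (FG147325) differed by 3.04 (2.03 in L2, -1.0 in WT, 0.198). The annotated probes A_95_P134087 (APS reductase-like) and A_95_P107022 (sodium-coupled neutral amino acid transporter) differed by 2.04 (1.08 in L2, -0.96 in WT, 0.161) and 1.86 (0.68 in L2, -1.17 in WT, 0.118). Some of these separations were narrow. In A_95_P134087 the lowest L2 salt level was 0.864 and the highest L2 normal level 0.845. In A_95_P292943 the lowest WT salt level was -3.63 and the highest WT normal level -3.66. L2 salt was on a slide without L2 normal, and slide and salt cannot be told apart in these values. Single outlying arrays were not tested within groups of 3.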

How the results depend on the processing

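For L2 salt against L2 normal, the probes counted higher and lower were 82 higher with the median of each array, 35 higher after quantile normalization, 13 higher with the 75th percentile over detected probes, 31 lower with normexp (run on the median signal, as the files hold no mean signal), 0 and 1 with no filter on dim probes, and 27 lower among probes well above background on all 12 arrays. They were 0 and 7 with the 6 L2 arrays alone, 34 higher with the replicate block, 72 and 19 with the slide as a fixed block, 0 and 1 as a random block, 2 and 18 with array weights, 33 higher without the fold limit, 1 and 1 at an adjusted p below 0.01, and 400 and 769 with the 2-fold limit alone. The methods' t-test gave 0 and 0 after adjustment, and 113 and 288 unadjusted. Against L2 normal 1 alone, they were 1337 and 940. Leaving out single arrays gave 1 to 134 higher and 15 to 118 lower. Where a setting above is given in a single direction, the count in the other direction was not 0 and is left out.

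For the difference between the responses, array weights gave 1284 higher and 1466 lower, the 2-fold limit alone 943 and 1557, and single arrays left out 0 to 1740 and 0 to 1517. For WT on the same probes, the count lower was 561 with the median, 560 with detected probes and 1322 with array weights, and the count higher 911 with normexp. It was 0 and 0 with the slide as a fixed or random block, 2430 and 2529 without the fold limit, 454 and 88 at an adjusted p below 0.01, and 655 to 1525 and 125 to 1023 without single arrays. With the slide as a fixed block, the WT counts of 0 rest on the L2 normal arrays, as described above. The cause of these shifts was not tested. The replicate block changed no other count of calls by more than 1.5 times.

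Among the named probes recomputed under every setting, the sign turned against L2 normal 1 alone for A_95_P047176 (-0.0057), A_95_P192712 (-1.03), A_95_P316268 (-1.46), A_95_P255764 (-0.756), A_95_P260261 (-0.425), A_95_P258921 (-0.0757), A_95_P078860 (-0.998), A_95_P058111 (-1.19) and A_95_P112997 (0.10). It also turned for A_95_P260261 after quantile normalization (-0.184), for A_95_P170234 with the slide as a fixed block (-0.0809) and for A_95_P058111 with it as a random block (-0.171). Without single arrays the range crossed 0 for A_95_P192712 (-0.0776 to 1.66), A_95_P316268 (-0.327 to 1.496), A_95_P255764 (-0.187 to 0.599), A_95_P048196 (-0.0702 to 0.827), A_95_P260261 (-0.12 to 0.397), A_95_P078860 (-0.0562 to 0.887) and A_95_P058111 (-0.275 to 0.70). Over all named probes, group medians and settings, 2024 values kept their result, 397 lost the count, 60 gained it, 23 changed sign and 19 moved by more than the spread. The 2024 include probes that were not counted in the main fit either, and medians that stayed within the spread, so they do not measure how stable the counted probes are. With the slide as a fixed block, 5 of the 24 named probes stayed counted. All 24 did with the median of each array, with scanner values and with the unadjusted t-test. The number was 0 with the adjusted t-test, 1 with no filter on dim probes, 1 with the slide as a random block and 4 with the 6 L2 arrays alone. The t-test gives no value for the difference between the responses, nor the fit on the L2 arrays alone one for WT. With 3 arrays a group on 3 slides, signal over background and the number of arrays set what can be measured.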
